A study of Bos taurus with 10 samples.

Results

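The genes described here were grouped as writers, maintainers and erasers of DNA methylation, though not each of them has such an activity of its own. They were chosen by symbol: Dnmt1, Dnmt3a, Dnmt3b, Dnmt3l, Uhrf1, Tet1, Tet2, Tet3, Tdg and Apobec1, and all 10 had a row among the 21130 rows of the deposited table. The table gives 1 FPKM value (fragments counted, scaled by transcript length and library size) per gene in each of 10 libraries. By the labels, all libraries are muscle of cattle aged 24 months: 7 carry the genotype MSTN+/-, with 1 altered copy of the myostatin gene, and 3 are wild type. The labels name no editing agent, promoter or clone, and do not say whether the libraries came from separate animals, so p-values measure only how these libraries spread, which may be technical in part.

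DNA methylation in mammals is the addition of a methyl group to cytosine, mostly where a guanine follows. Dnmt3a and Dnmt3b encode the enzymes that set new methylation, and Dnmt3l encodes a partner of them that lacks catalytic activity. After DNA replication, Dnmt1 copies the pattern to the new strand, guided by Uhrf1, which binds hemimethylated sites. The Tet enzymes oxidise 5-methylcytosine, Tdg excises the most oxidised forms so that base excision repair can restore plain cytosine, and Apobec1 is a cytidine deaminase best known for editing the apolipoprotein B mRNA. Pluripotent cells and early embryos are known for high Dnmt3b, Dnmt3l and Tet1, and many somatic cells for Tet3.

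Species and marker genes of the rows differed from the labels: 19415 were described as genes of Mus musculus and 0 as genes of Bos taurus, and Mstn itself was listed at 0 to 0.18 FPKM, so it cannot check the genotype labels. Of 10 skeletal muscle markers, 1 to 6 reached 1 FPKM in a library, their summed level was 11.6 to 31.0 FPKM, and the creatine kinase gene Ckm and the titin gene Ttn stayed at or under 1.07 and 0.40 FPKM. Among these markers the myosin genes Myh2 (5.73 to 15.3 FPKM) and Myh1 (1.5 to 5.88 FPKM) were higher in all MSTN+/- libraries than in any wild-type library (at most 0.14 and 0.76 FPKM), and the actin gene Acta1 was at 24.4 FPKM in wild-type replicate 1 and 2.66 to 6.22 FPKM elsewhere. Summed over 10 pluripotency markers the level was 914 to 1558 FPKM in the MSTN+/- libraries, while wild type 1, 2 and 3 gave 2.28, 2656 and 3029 FPKM. Most of the MSTN+/- sum came from Pou5f1 (633 to 848 FPKM) and Sox2 (212 to 357 FPKM). Pou5f1 was lower in wild-type replicates 2 and 3 (346 and 533 FPKM) than in any MSTN+/- library and Sox2 was at 224 and 202 FPKM there, whereas each of the other 8 markers was higher in both than in all MSTN+/- libraries. Summed over 10 fibroblast markers it was 2860 to 5957 FPKM in the MSTN+/- libraries, while wild type 1, 2 and 3 gave 6420, 397 and 279.6 FPKM. The blood marker Ptprc and the endothelial marker Emcn were at or under 0.04 and 0.26 FPKM, but neither list was absent. The 8 blood markers summed to 21.3 to 81.7 FPKM, mostly Laptm5 in the MSTN+/- libraries. The 6 endothelial markers summed to 9.08 to 51.5 FPKM, mostly Tek in the MSTN+/- libraries (15.8 to 23.6 FPKM) and Pecam1 and Egfl7 in wild-type replicates 2 and 3. Differences below are therefore differences between columns that carry these labels, and none can be assigned to MSTN or to cattle muscle. Library FPKM totals were 402716 to 464418, and total depth is unknown.

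The comparison of the labels asks which methylation genes differ with the MSTN genotype, and the answer turned on which wild-type library was read. In a limma fit over the 14047 genes that reached 1 FPKM in at least 3 libraries, Apobec1 and Tet3 were higher and Dnmt1 and Uhrf1 lower in the libraries labelled MSTN+/-, and the other 6 did not pass an adjusted p of 0.05. Of all genes tested, 31.8% were higher and 12.8% lower, so 2 of 10 in each direction is close to the background. The median log2 change was -0.80 over the members and 0.17 over all genes tested. Only Apobec1 and Dnmt1 had labelled groups that did not overlap, 2 of 10 beside 32% of genes tested.

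The wild-type libraries differed in where they lay. In both wild-type replicates 2 and 3, 8 of the 10 genes lay above all 7 MSTN+/- libraries, beside 31.7% of genes tested. The other 2, Tet3 and Apobec1, lay below all 7 in both. The share of genes tested that lay below in both was not counted, so these 2 have no background. Dnmt1, Dnmt3b, Dnmt3l, Uhrf1, Tet1 and Tet2 were at least 2 times the highest MSTN+/- library in both, 6 of 10 beside 6.86% of genes tested, and Dnmt3b, Dnmt3l and Tet1 at least 4 times, 3 of 10 beside 1.03%. The genes were chosen with earlier results of these data known, so no count in this paragraph is a test of the set. In wild-type replicate 1, 6 of 10 lay below all MSTN+/- libraries, beside 50% of genes tested, and 1, Dnmt1, above them, beside 19.8%. For Dnmt3a, Dnmt3b, Dnmt3l, Tet1 and Tet2, replicates 2 and 3 thus lay above the MSTN+/- range and replicate 1 below it. These were 5 of 10, beside 12.7% of genes tested with that same arrangement.

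The counts moved with the wild-type libraries kept. Without replicate 1, 2 members were higher and 8 lower, where 42.2% and 31.9% of genes tested were called (74.1% in all). Without replicate 2, 1 was higher and 0 lower (background 25.2% and 5.71%), and without replicate 3 also 1 and 0 (24.8% and 5.7%). With replicate 1 as the only wild-type library, 3 were higher and 0 lower (33.7% and 10.8%). Quantile normalization gave 1 higher and 3 lower (22% and 24.9%), and median-of-ratios scaling 2 and 3 (23.2% and 23%). Library weights gave 2 and 7 (34.6% and 24%), but their estimation stopped before it converged. The weights of wild-type replicates 1, 2 and 3 were 0.0364, 0.1 and 0.896. On the wild-type side that fit thus rested mainly on replicate 3.

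**Figure D1:**
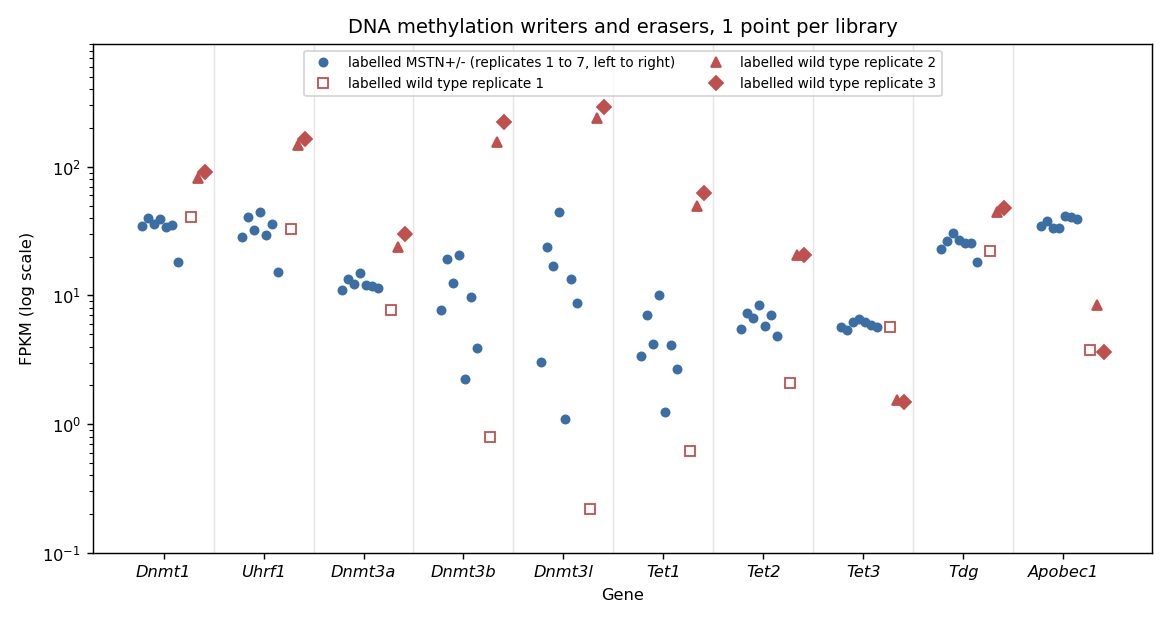
FPKM of each of the 10 genes on a log axis, 1 point per library: circles are the 7 libraries labelled MSTN+/- in replicate order, the open square is labelled wild-type replicate 1, and the filled triangle and diamond are replicates 2 and 3. Dnmt3l runs from 0.22 FPKM in wild-type replicate 1 through 1.09 to 44.7 FPKM in the MSTN+/- libraries to 238 and 289 FPKM in replicates 2 and 3, while Apobec1 is at 33.5 to 41.1 FPKM in all MSTN+/- libraries and at or under 8.41 FPKM in every wild-type library.

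Maintenance genes were expressed in every library. Dnmt1 (gene 13433) was at 18.1 FPKM in the lowest, 35.5 in the median and 40.3 in the highest of the 7 MSTN+/- libraries, while wild type 1, 2 and 3 gave 40.8, 81.5 and 91.8 FPKM. Replicate 1 was just above the highest MSTN+/- library, and replicates 2 and 3 were 2.02 and 2.28 times that library. The log2(FPKM + 1) change was -1.0 and its SE 0.29 (limma adjusted p = 0.0170). Uhrf1 (gene 18140) was at 15.2, 32.3 and 44.2 FPKM (lowest, median and highest MSTN+/-), while wild type 1, 2 and 3 gave 33.0, 148 and 165 FPKM. Replicate 1 thus sat inside the MSTN+/- range, and the other two were 3.36 and 3.75 times its top. Its log2 change was -1.57 and its SE 0.47 (limma adjusted p = 0.0227).

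Both calls needed wild-type replicates 2 and 3 together. Without replicate 2 the limma adjusted p was 0.0796 for Dnmt1 and 0.113 for Uhrf1, without replicate 3 it was 0.0905 and 0.119, and against replicate 1 alone it was 0.511 and 0.885, with log2 changes of -0.29 and -0.09. Over all alternatives the adjusted p ran from 0.00056 to 0.511 for Dnmt1 and from 8.359e-05 to 0.885 for Uhrf1. The ratio of Uhrf1 to Dnmt1 was 0.827 to 1.13 in the MSTN+/- libraries and 0.810 in wild-type replicate 1, against 1.82 and 1.80 in replicates 2 and 3. Markers of cycling cells moved with both genes: summed over 10 markers they were between 159 and 397 FPKM across the MSTN+/- libraries, while wild type 1, 2 and 3 gave 368, 959 and 1051 FPKM, with none at 0. Their part in the result was not tested. In such bulk RNA, fewer cells of a type and less RNA per cell cannot be told apart.

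Of the de novo genes, Dnmt3b and Dnmt3l ranged far more widely over the libraries than Dnmt3a. Dnmt3a (gene 13435) was at 11.1, 12.1 and 14.9 FPKM in the lowest, median and highest MSTN+/- libraries, while wild type 1, 2 and 3 gave 7.68, 23.9 and 30.04 FPKM. Dnmt3b (gene 13436) was at 2.24, 9.64 and 20.7 FPKM in the MSTN+/- libraries, while wild type 1, 2 and 3 gave 0.79, 156 and 224 FPKM. Replicates 2 and 3 were 7.54 and 10.8 times the highest MSTN+/- library for Dnmt3b but only 1.61 and 2.02 times for Dnmt3a. Dnmt3l (gene 54427) was at 1.09, 13.3 and 44.7 FPKM in the MSTN+/- libraries, while wild type 1, 2 and 3 gave 0.22, 238 and 289 FPKM. In all 3 genes wild-type replicate 1 was the lowest of the 10 libraries and replicate 3 the highest.

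None of these de novo genes passed the test between the labelled groups. The log2 changes were -0.50 (SE 0.32) for Dnmt3a, -2.02 (SE 1.31) for Dnmt3b and -1.95 (SE 1.59) for Dnmt3l, with limma adjusted p of 0.221, 0.224 and 0.332. Without wild-type replicate 1 they were -1.06, -4.26 and -4.54 (limma adjusted p = 2.474e-05, 0.00017 and 0.0016), in a fit that called 74.1% of all genes. Against replicate 1 alone the signs turned, to 0.62, 2.45 and 3.22, and Dnmt3a passed the threshold as higher (limma adjusted p = 0.00812), in a fit whose single wild-type library is assumed to vary like the 7. Over all alternatives the adjusted p reached 0.766, 0.700 and 0.823.

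FPKM is scaled by transcript length, so levels can be compared between these paralogs. Dnmt3b made up 15.7% to 58.8% of the summed FPKM of Dnmt3a and Dnmt3b in the MSTN+/- libraries, with a median of 45.1%, and 9.33%, 86.7% and 88.2% in wild-type replicates 1, 2 and 3. The summed level of both was 14.3 to 35.6 FPKM in the MSTN+/- libraries, while wild type 1, 2 and 3 gave 8.47, 180.03 and 254 FPKM. Dnmt3l stood at 0.0903 to 3.0 times Dnmt3a in the MSTN+/- libraries and at 0.0286, 9.95 and 9.63 times in the wild-type libraries. The Dnmt3b row lists 9 transcripts and the Dnmt3l row 6, so isoforms are not resolved. Rodents also carry Dnmt3c, a close copy of Dnmt3b, whose reads could be counted under Dnmt3b.

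**Figure D2:**
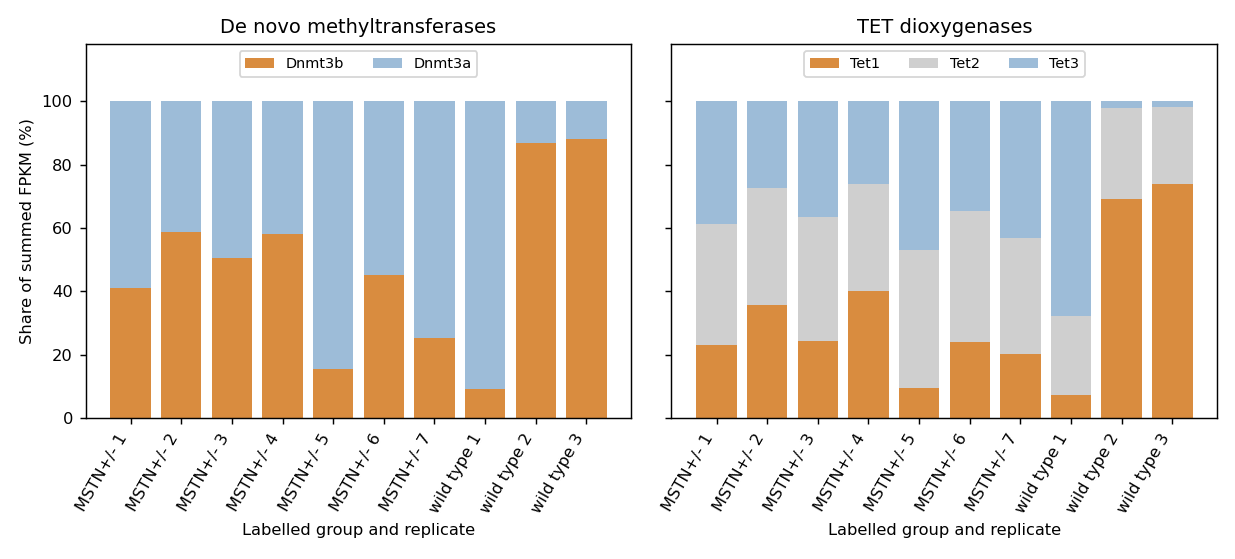
Share of summed FPKM, in percent, taken by Dnmt3b and Dnmt3a (left) and by Tet1, Tet2 and Tet3 (right) in each library, as stacked bars from 0 to 100%, labelled by group and replicate. Dnmt3b holds 86.7% and 88.2% and Tet1 69.2% and 73.8% in wild-type replicates 2 and 3, against 9.33% and 7.42% in replicate 1, with all MSTN+/- libraries in between.

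The 3 TET genes did not move together. Tet1 (gene 52463) was at 1.25, 4.11 and 10.1 FPKM in the lowest, median and highest MSTN+/- libraries, while wild type 1, 2 and 3 gave 0.62, 49.7 and 62.6 FPKM. Tet2 (gene 214133) was at 4.82, 6.70 and 8.46 FPKM in the MSTN+/- libraries, while wild type 1, 2 and 3 gave 2.07, 20.5 and 20.8 FPKM. For both genes replicate 1 was the lowest library and replicates 2 and 3 the highest, 4.94 and 6.23 times the top MSTN+/- value for Tet1 and 2.43 and 2.45 times for Tet2. Tet3 (gene 194388) ran the other way, at 5.40, 5.89 and 6.53 FPKM in the MSTN+/- libraries, while wild type 1, 2 and 3 gave 5.67, 1.53 and 1.49 FPKM. Its value in replicate 1 fell inside the MSTN+/- range, while replicates 2 and 3 were 0.234 and 0.228 times the highest MSTN+/- library.

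Tet3 was called higher in the MSTN+/- libraries, by 1.0 on the log2 scale (SE 0.27, limma adjusted p = 0.0130). The call was lost without wild-type replicate 2 (limma adjusted p = 0.0727), without replicate 3 (0.0718), with quantile normalization (0.0841, log2 change 0.61) and against replicate 1 alone (0.738, log2 change 0.06), in a range from 5.426e-07. Tet1 and Tet2 did not pass, with log2 changes of -1.78 (SE 0.99) and -0.60 (SE 0.52) and limma adjusted p of 0.165 and 0.358. Without replicate 1 these were -3.49 and -1.54 (limma adjusted p = 8.62e-05 and 1.649e-05), and against replicate 1 alone 1.64 and 1.28 (0.0726 and 0.00218), and the highest adjusted p over all alternatives was 0.572 and 0.879. Tet1 held 9.47% to 40.1% of the summed Tet level in the MSTN+/- libraries and 7.42%, 69.2% and 73.8% in the wild-type libraries. Tet3 held 26.1% to 46.9% in the MSTN+/- libraries and 67.8%, 2.13% and 1.76% in the wild-type libraries. The summed Tet level was 13.2 to 25.04 FPKM in the MSTN+/- libraries, while wild type 1, 2 and 3 gave 8.36, 71.7 and 84.8 FPKM.

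**Figure D3:**
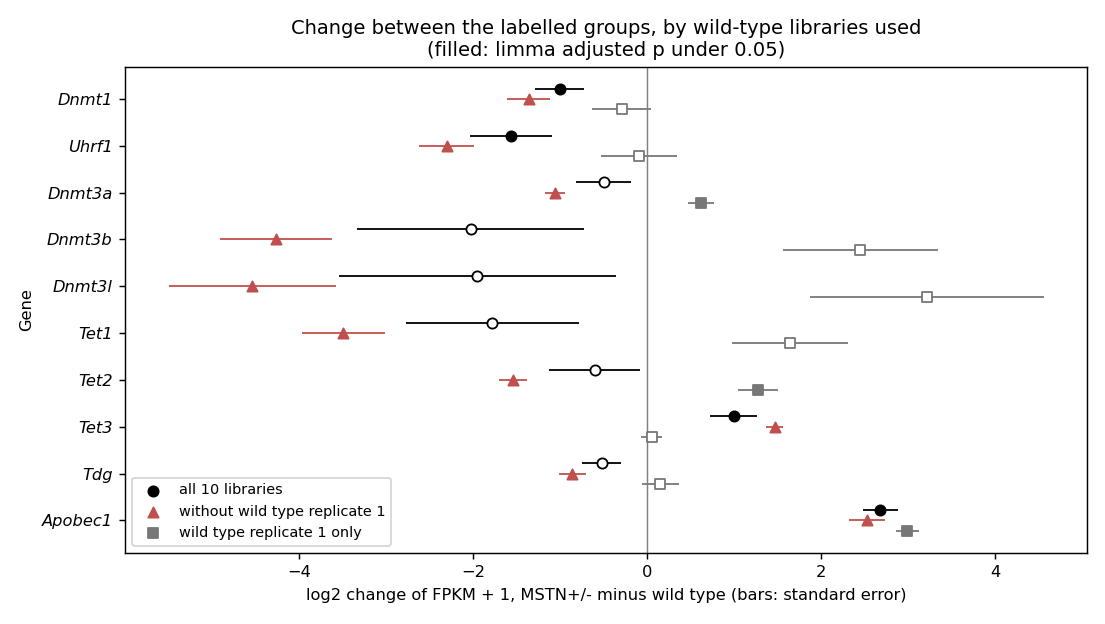
Difference in mean log2(FPKM + 1), MSTN+/- minus wild type, for each gene, with its standard error as a bar: circles use all 10 libraries, triangles leave out wild-type replicate 1 and squares use replicate 1 as the only wild-type library, and filled symbols passed a limma adjusted p of 0.05. Dnmt3a, Dnmt3b, Dnmt3l, Tet1, Tet2 and Tdg change sign between the triangles and the squares, while Apobec1 stays between 2.53 and 2.99.

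Tdg (gene 21665), the glycosylase of active removal, was at 18.04, 25.7 and 30.3 FPKM in the lowest, median and highest MSTN+/- libraries, while wild type 1, 2 and 3 gave 22.2, 44.1 and 47.9 FPKM, so replicate 1 overlapped and replicates 2 and 3 were 1.45 and 1.58 times the top. Its log2 change of -0.52 (SE 0.23) missed the threshold (limma adjusted p = 0.0861). It passed with median-of-ratios scaling (-0.73, limma adjusted p = 0.0144), TPM rescaling (0.0429), quantile normalization (0.0441), library weights (0.00998) and without wild-type replicate 1 (-0.86, 0.00057), and was 0.16 against replicate 1 alone (0.582).

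Apobec1 (gene 11810) was the 1 member whose call held in every setting run. It was at 33.5, 38.1 and 41.1 FPKM in the lowest, median and highest MSTN+/- libraries, while wild type 1, 2 and 3 gave 3.78, 8.41 and 3.65 FPKM. Every MSTN+/- library was above every wild-type library, and the mean was 37.2 ± 3.30 FPKM (SD, n = 7) against 5.28 ± 2.71 FPKM (SD, n = 3). The log2 change was 2.68 and its SE 0.20 (limma adjusted p = 5.923e-06), past the threshold there and in all 19 alternatives, with adjusted p from 3.729e-07 to 4.709e-05. Its family member Apobec3, which restricts retroviruses, ran from 30.4 to 51.1 FPKM across the MSTN+/- libraries, while wild type 1, 2 and 3 gave 6.26, 55.99 and 53.5 FPKM, and did not pass (log2 change 0.60, SE 0.54, limma adjusted p = 0.377). Without wild-type replicate 1 that change was -0.38 (limma adjusted p = 0.0537), and against replicate 1 alone it was 2.56 (3.523e-05), and the highest adjusted p over all alternatives was 0.581.

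The order of the genes by level also differed between libraries. By mean FPKM over the 7 MSTN+/- libraries it was Apobec1 (37.2), Dnmt1 (34.0), Uhrf1 (32.4), Tdg (25.1), Dnmt3l (16.0), Dnmt3a (12.4), Dnmt3b (10.8), Tet2 (6.53), Tet3 (5.94) and Tet1 (4.67). In none of the 9 neighbouring pairs was the upper gene higher in all 7 libraries, and the count was 3 to 6 of 7. In wild-type replicate 1 the order was Dnmt1, Uhrf1, Tdg, Dnmt3a, Tet3, Apobec1, Tet2, Dnmt3b, Tet1 and Dnmt3l. Replicates 2 and 3 shared an order that began with Dnmt3l, Dnmt3b, Uhrf1, Dnmt1 and Tet1 and ended with Apobec1 and Tet3.

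Within the MSTN+/- label the libraries were far from uniform in Dnmt3l, Dnmt3b and Tet1. The coefficient of variation was 93.4% for Dnmt3l, 65.4% for Dnmt3b and 63.5% for Tet1, at the 97.4, 95.1 and 94.9 percentiles of the 14047 genes tested, whose median was 13.2%. By contrast it was 6.79% for Tet3, 8.87% for Apobec1 and 10.6% for Dnmt3a. Dnmt3l was at 3.06, 23.9, 17.0, 44.7, 1.09, 13.3 and 8.78 FPKM in MSTN+/- replicates 1 to 7, a 41.0-fold range. Dnmt3b and Tet1 ranged 9.25-fold and 8.04-fold, and all 3 were highest in replicate 4 and lowest in replicate 5.

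These 3 genes followed nearly the same order of libraries. Over the 7 MSTN+/- libraries, Dnmt3b and Tet1 had Pearson's r = 0.960 on log2(FPKM + 1) and Spearman's rho = 1 (exact permutation over 5040 pairings, two-sided, p = 0.0006 and 0.0004, adjusted over 45 pairs 0.0134 and 0.00893), and r was 0.943 without the 2 libraries farthest from the median of Dnmt3b. Dnmt3l and Tet1 had r = 0.920 and rho = 0.964 (exact permutation p = 0.00536 and 0.00278, adjusted 0.0482 and 0.0313), with r = 0.983 without the farthest 2. For Dnmt3b and Dnmt3l, r was 0.877 and rho 0.964 (exact permutation p = 0.0121 and 0.00278, adjusted 0.0908 and 0.0313), with r = 0.917 without the farthest 2. Uhrf1 and Tet2 had r = 0.917 and rho = 1 (exact permutation p = 0.0004 for each, the smallest these pairings gave, adjusted 0.0134 and 0.00893), with r = 0.943 without the farthest 2. Dnmt1 and Uhrf1 had r = 0.960 and rho = 0.893 (exact permutation p = 0.00218 and 0.0123, adjusted 0.0327 and 0.0670), and r = 0.922 without the farthest 2.

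Of the 45 pairs, 5 passed the adjusted threshold for r, 4 for rho and 3 for both. The pair not yet given that passed for r was Dnmt1 and Tet2. It had r = 0.779 and rho = 0.893 (exact permutation, adjusted 0.0482 and 0.0670). Pairs among all genes tested were not counted, so these counts have no background. The labels name no batch, so no value within a batch could be given. The median of the pluripotency markers moved with Dnmt3l, though not their most abundant genes: the 7 libraries had the same order by Dnmt3l as by the median of 10 pluripotency markers, which was 11.7, 36.7, 29.1, 60.3, 4.85, 21.7 and 13.9 FPKM in replicates 1 to 7. Pou5f1 and Sox2 did not follow that order, both being highest in replicate 7 (848 and 357 FPKM). In wild-type replicates 1, 2 and 3 that median was 0.10, 229 and 190 FPKM, with 0, 10 and 10 of 10 markers at 1 FPKM or more, and Zfp42 and Utf1 were listed at 0 in replicate 1. Their part in the result was not tested. The low Dnmt1 and Uhrf1 of MSTN+/- replicate 7 stood beside its median of 16.8 FPKM for cycling markers, against 28.5 to 36.01 FPKM in the other 6, which was not tested either.

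**Figure D4:**
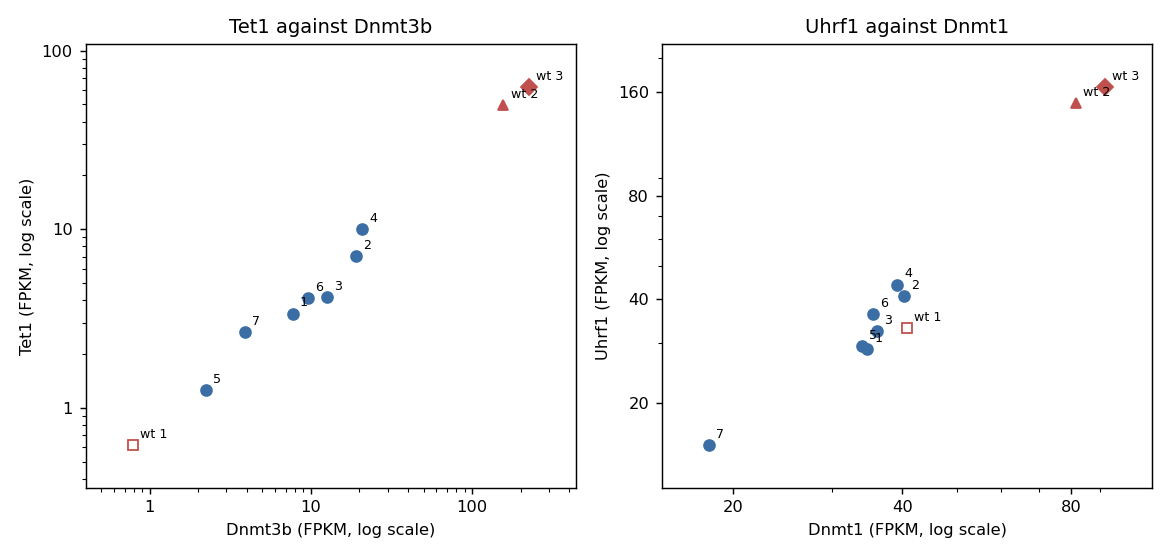
FPKM on log axes of Tet1 against Dnmt3b (left) and Uhrf1 against Dnmt1 (right), 1 point per library: circles numbered 1 to 7 are the libraries labelled MSTN+/-, and the points marked wt 1, wt 2 and wt 3 are labelled wild type. The 7 circles have the same order in Tet1 and Dnmt3b (rho = 1), and MSTN+/- replicate 7 lies apart at 18.1 FPKM of Dnmt1 and 15.2 FPKM of Uhrf1.

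The genes with the most similar pattern over all 10 libraries were found by Pearson's r on log2(FPKM + 1) among 9547 genes. This is a description: the 3 wild-type libraries lie far from the 7 for several members, and all values come from the same libraries. For Dnmt1 they were the nuclear transport GTPase gene Ran (r = 0.996), the ribonucleotide reductase gene Rrm2 (0.995) and the replication gene Cdc45 (0.995), and for Uhrf1 Lbr, a lamin B receptor (0.997), Mcm2, a subunit of the replicative helicase (0.997), and Wbp11 (0.997). For Dnmt3b they were Mycn, a Myc family transcription factor (0.997), B3gnt7 (0.994) and Zscan10 (0.992), for Dnmt3l the pluripotency factor gene Esrrb (0.997), Amt (0.997) and Trap1a (0.996), and for Tet1 Nodal, a TGF-beta family ligand (0.995), Syce2 (0.994) and Hsd17b14 (0.994).

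Dnmt3a was most like 1600002H07Rik (r = 0.996), Mettl4 (0.994) and Mcl1, an inhibitor of apoptosis (0.993), and Tet2 was most like the acetyltransferase gene Kat2a (0.998) and Txlng (0.996). Tdg was most like Cwf19l1 (0.995), Gtf2h2 (0.985) and Mrpl19 (0.985). Apobec1 was most like the class I histocompatibility gene H2-D1 (0.997), Tmc6 (0.997) and Gbp7, an interferon-inducible GTPase gene (0.996). H2-D1 ran from 451 to 582 FPKM across the MSTN+/- libraries, while wild type 1, 2 and 3 gave 26.3, 61.1 and 25.2 FPKM. Tet3 was most like Efna5 (0.994), Limch1 (0.994) and Cplx2 (0.994). Within the MSTN+/- libraries alone, r was 0.413 for Apobec1 with H2-D1, 0.798 with Tmc6 and 0.363 with Gbp7. It was 0.457 for Tet3 with Efna5, 0.487 with Limch1 and 0.948 with Cplx2.

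Other genes of the pathway were read from 8 lists, of which 71 of 74 symbols had a row. For list counts from all libraries the background is 31.8% higher and 12.8% lower. Counts from other fits have their own background. It was 42.2% and 31.9% without wild-type replicate 1, 25.2% and 5.71% without replicate 2, and 24.8% and 5.7% without replicate 3. Median-of-ratios scaling gave 23.2% and 23%, and quantile normalization 22% and 24.9%. Of 7 partners of maintenance methylation, 3 were lower and 1 higher, with a median log2 change of -0.90. The chromatin remodeller gene Hells ran from 6.52 to 22.7 FPKM across the MSTN+/- libraries, while wild type 1, 2 and 3 gave 13.6, 102 and 99.8 FPKM (log2 change -1.90, limma adjusted p = 0.0222). Usp7, a deubiquitinase that stabilises Dnmt1, was at 27.7 to 44.3 against 27.7, 106 and 109 FPKM, and the ligase gene Lig1 at 13.6 to 38.1 against 23.1, 95.9 and 109.8 FPKM (log2 changes -1.03 and -1.24, limma adjusted p = 0.0425 and 0.0434). Uhrf2, the paralog of Uhrf1, was at 18.07 to 22.5 FPKM against 20.3, 11.4 and 9.57 FPKM (log2 change 0.59, limma adjusted p = 0.0278). The list had 0 lower calls without wild-type replicate 2, without replicate 3 or against replicate 1 alone, and 5 without replicate 1. The calls of Usp7 and Lig1 held in 9 of 19 alternatives and were lost on leaving out any single MSTN+/- library but replicate 4, with adjusted p up to 0.347 and 0.770 (lowest 4.941e-06 and 0.00014), and that of Hells in 16 of 19 (3.275e-05 to 0.965). Uhrf2 was not called with median-of-ratios, TPM or quantile scaling (limma adjusted p = 0.149, 0.0634 and 0.0776), nor without MSTN+/- replicate 2 or 6, without wild-type replicate 2 (0.117) or 3 (0.144), or against replicate 1 alone (0.989, with the sign turned; range over all alternatives of 3.253e-05 to 0.989).

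Of 8 genes that target or limit de novo methylation, 2 were lower and none higher (median -0.91). Setd2, which writes the histone H3 mark read by Dnmt3b, ran from 13.1 to 16.7 FPKM across the MSTN+/- libraries, while wild type 1, 2 and 3 gave 18.02, 26.2 and 22.1 FPKM, a log2 change of -0.48 with SE 0.12 (limma adjusted p = 0.0106). Trim28, the corepressor of zinc finger proteins, was at 96.9 to 185 FPKM against 116, 617 and 520 FPKM, a log2 change of -1.29 with SE 0.45 (limma adjusted p = 0.0388). Setd2 was lost without wild-type replicate 2 (0.0579) and against replicate 1 alone (0.198), from a lowest of 0.00032, and Trim28 held in 9 of 19 alternatives, lost on leaving out any single MSTN+/- library but replicate 4 (1.998e-05 to 0.573). Nsd1 and the imprint guardian gene Zfp57 did not pass (limma adjusted p = 0.0888 and 0.115). Zfp57 was at 15.6 to 48.7 FPKM against 14.1, 179.6 and 122 FPKM, and Nsd1 at 16.7 to 21.3 FPKM against 14.6, 42.2 and 37.5 FPKM. The list had 7 lower calls without wild-type replicate 1, 0 without replicate 2, 1 without replicate 3 and 0 against replicate 1 alone, and 4 with median-of-ratios or quantile scaling.

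Regulators of TET activity and demethylation had 3 of 7 tested members higher and 2 lower (median 0.38). The growth arrest genes Gadd45b and Gadd45g, reported to aid demethylation, were higher: Gadd45b was at 20.5 to 27.95 FPKM against 11.6, 10.1 and 12.1 FPKM (log2 change 1.03, SE 0.11, limma adjusted p = 7.976e-05), and Gadd45g at 63.3 to 90.4 FPKM against 40.7, 16.1 and 13.4 FPKM (log2 change 1.82, SE 0.28, limma adjusted p = 0.00064). In neither gene did the labelled groups overlap, and both calls held in all 19 alternatives. Gadd45a went the other way, at 10.7 to 27.6 FPKM against 21.8, 74.03 and 79.7 FPKM (log2 change -1.50, limma adjusted p = 0.0115), a call lost without wild-type replicate 2 (0.0630), without replicate 3 (0.0648) and against replicate 1 alone (0.518), in a range from 6.025e-05. Idh1, which makes the TET cofactor 2-oxoglutarate in the cytosol, was at 56.5 to 79.3 FPKM against 56.6, 38.3 and 35 FPKM (log2 change 0.66, limma adjusted p = 0.00773), lost with median-of-ratios scaling (0.0714) and against replicate 1 alone (0.249), in a range from 9.763e-05. The list had 0 lower calls without replicate 2 or 3.

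The list of readers of methylated DNA and their relatives had the most higher calls: 5 of 8 were higher and 1 lower (median 0.65). Zbtb4 ran from 8.83 to 13.7 FPKM across the MSTN+/- libraries, while wild type 1, 2 and 3 gave 6.12, 1.87 and 1.23 FPKM (log2 change 1.64, SE 0.30, limma adjusted p = 0.00185), with no overlap and a call in all 19 alternatives. Zbtb33, also called Kaiso, was at 5.75 to 8.53 against 5.35, 3.31 and 3.15 FPKM, and Mbd1 at 9.23 to 12.3 against 8.95, 5.12 and 6.17 FPKM. Their log2 changes were 0.75 and 0.62 (limma adjusted p = 0.00406 and 0.0079). Mbd2 was also higher and Mbd3 lower, both named after their values were seen. With quantile normalization 2 genes of the list were higher and 2 lower, and Zbtb33 and Mbd1 missed the threshold (limma adjusted p = 0.0860 and 0.0990). They also missed it against replicate 1 alone (0.121 and 0.206), where 2 readers were higher and none lower, and Mbd1 missed it with median-of-ratios scaling (0.0672). The lowest adjusted p over the alternatives was 7.128e-05 and 6.881e-05.

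Of 11 base excision repair genes, 3 were higher and 1 lower (median -0.04). The glycosylase genes Smug1, Neil3 and Neil1 had log2 changes of 0.61, 0.83 and 0.66 (limma adjusted p = 0.00358, 0.0042 and 0.0199). Smug1 was at 5.53 to 7.58 FPKM against 4.45, 4.08 and 3.07 FPKM, Neil3 at 2.75 to 4.99 against 2.67, 1.46 and 2.06 FPKM, and Neil1 at 3.53 to 7.13 against 3.27, 2.87 and 4.49 FPKM. With quantile normalization 0 of the 11 were higher, and the 3 missed the threshold (limma adjusted p = 0.146, 0.123 and 0.333, from lowest values of 0.00044, 0.00065 and 0.00232). Neil3 was also lost against wild-type replicate 1 alone (0.0854), and Neil1 without wild-type replicate 2 (0.0925), against replicate 1 alone (0.0569), with median-of-ratios scaling (0.0644) and with library weights (0.402). The ligase gene Lig3 was at 11.3 to 15.8 against 15.0, 20.2 and 17.5 FPKM (log2 change -0.34, limma adjusted p = 0.0454), a call that held in 9 of 19 alternatives and was lost without wild-type replicate 2 (0.201) or 3 (0.112), in a range of 0.0026 to 0.491. Lower calls in this list numbered 5 without wild-type replicate 1, 0 without replicate 2 or 3 and 3 with median-of-ratios scaling.

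Of the deaminases and their cofactors, 3 of 4 genes with a row passed the low-value filter and none passed the test. Rbm47, a cofactor of Apobec1 editing, was at 0.34 to 2.78 FPKM against 0.48, 12.3 and 8.60 FPKM (log2 change -1.46, limma adjusted p = 0.0664), so its values in wild-type replicates 2 and 3 lay on the side opposite to those of Apobec1. It passed in 4 of the 18 alternatives that tested it, with the lowest adjusted p without wild-type replicate 1 (8.527e-05), and was positive against replicate 1 alone (0.49, limma adjusted p = 0.420). Apobec2 was at 0.73 to 2.60 FPKM against 0.23, 2.34 and 0.75 FPKM.

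Methyl donor genes split evenly, with 2 of 10 tested members higher and 2 lower (median -0.09). Ahcy, which clears the product inhibitor S-adenosylhomocysteine, ran from 12.1 to 21.9 FPKM across the MSTN+/- libraries, while wild type 1, 2 and 3 gave 20.3, 44.5 and 100.3 FPKM (log2 change -1.31, limma adjusted p = 0.0179), lost without wild-type replicate 2 (0.0558) or 3 (0.0694) and against replicate 1 alone (0.529), in a range from 7.785e-05. Its relative Ahcyl2 was at 3.60 to 4.24 against 5.52, 6.31 and 6.94 FPKM (log2 change -0.56, limma adjusted p = 0.00188), with no overlap and a call in every fit that tested it. Bhmt, which remethylates homocysteine, was at 0.94 to 4.91 against 0.19 FPKM in wild-type replicate 2 and a listed 0 in the other two. It passed the low-value filter only through the MSTN+/- libraries, so its call, 1 of the 2 higher, is no support for a difference. Nnmt, which spends methyl groups on nicotinamide, was at 4.24 to 8.51 against 5.64, 2.22 and 0 FPKM (log2 change 1.29, limma adjusted p = 0.0431), and kept its call in only 3 of the 18 alternatives that tested it, in a range of 0.00087 to 0.942. Lower calls in this list numbered 5 without wild-type replicate 1, 1 without replicate 2 or 3 and 4 with median-of-ratios scaling, and higher calls 1 without replicate 2 or 3.

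Germline genes that promoter methylation keeps silent in somatic cells were read by level alone, since several passed the low-value filter only through wild-type replicates 2 and 3 and a few MSTN+/- libraries. Of 13 such genes, 0 to 6 reached 1 FPKM in an MSTN+/- library, 0 in wild-type replicate 1 and 10 in each of replicates 2 and 3. The RNA helicase gene Ddx4 ran from 0.18 to 1.52 FPKM across the MSTN+/- libraries, while wild type 1, 2 and 3 gave 0.13, 5.22 and 10.4 FPKM. Mael was at 0 to 2.23 against 0, 10.3 and 12.1 FPKM, the meiotic genes Hormad1 at 0 to 3.72 against 0, 13.4 and 18.5 FPKM and Sycp3 at 0.27 to 2.99 against 0.41, 8.10 and 6.88 FPKM. The library with most of these genes at 1 FPKM among the 7, with 6, was MSTN+/- replicate 4, which also had the highest Dnmt3l, Dnmt3b and Tet1. The library with 0 was replicate 5, which had the lowest of each. Among the 7, genes of any kind at 1 FPKM or more were also most numerous in replicate 4 (13858) and fewest in replicate 5 (13033). Wild-type replicates 1, 2 and 3 had 11856, 12584 and 12353 such genes. How these counts relate was not tested.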

How the data were processed

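The authors deposited 1 FPKM value per gene and library, per the file headers, rounded to 2 decimals, with aligner, annotation and genome build not given in the sources used here. Columns were tied to libraries by library title and groups by the genotype label; replicate numbers follow accession order, are names alone and pair nothing, and 0 columns of per-library values were left unused. FPKM is not a count, so no count test was run. Low values of single-transcript genes put the other 9 libraries at a modal ratio of 1.08 to 1.19 to MSTN+/- replicate 1, with 16.5% to 21.5% of those genes at the mode, too few to recover whole reads.

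The test was limma 3.58.1 (R 4.3.3), with an intensity trend, on log2(FPKM + 1), a scale that understates changes of low genes, for genes that reached 1 FPKM in at least 3 libraries, without covariates, with Benjamini-Hochberg adjustment over all genes tested. Permutation tests and figures used Python 3.11.15 and matplotlib 3.10.9. The fit was tried on simulated independent normal values with the same spread in both labelled groups. The wild-type libraries here differ far more among themselves, so that trial cannot show how the fit behaves on them. Members and lists were chosen with earlier results of these data known. All members are named; from each list the up to 4 genes with the smallest p, and for each member the 3 genes with the highest correlation among those with a mean of 5 FPKM or more. Alternatives were library weights, robust empirical Bayes, a pseudocount of 0.1, no filter, a filter at a mean of 5 FPKM, scaling by TPM, quantiles or median ratios, leaving out each library, and wild-type replicate 1 as the only wild-type library. Symbols were matched exactly; Nsd2, Apobec4 and A1cf had no row under those symbols. A few genes that these rules select are not reported here.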

Additional observations from a re-analysis of the deposited data

Results flagged for a closer look

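Of 50 measures examined over the 7 MSTN+/- libraries (the members, the named pathway genes and the ratios and shares of members), 7 had a library whose gap to its nearest neighbour was large for the range of the group. The cut used passes about 1 in 20 for normally distributed values. Several measures here were low FPKM values or shared the same genes, so the count of 7 has no background. Dnmt1 was at 18.13 FPKM in MSTN+/- replicate 7, with the other 6 at 33.9 to 40.3 FPKM. In the same library Neil3 was at 2.75 FPKM, with the others at 4.42 to 4.99 FPKM. Neil1 was at 3.53 FPKM in MSTN+/- replicate 3, with the others at 6.15 to 7.13 FPKM. The other 4 were high values of MSTN+/- replicate 4: Rbm47 at 2.78 FPKM (others 0.34 to 1.38), Apobec2 at 2.6 FPKM (others 0.73 to 1.43), Ddx4 at 1.52 FPKM (others 0.18 to 0.52) and Mael at 2.23 FPKM (others 0 to 0.8).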

How the results depend on the processing

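The count of members called higher was 2 and of members called lower 2. Higher calls numbered 1 with quantile normalization and 1 to 2 when single libraries were left out, with 1 without wild-type replicate 2 or 3. Lower calls numbered 7 with library weights, whose estimation stopped before it converged, 0 against wild-type replicate 1 alone, and 0 to 8 when single libraries were left out: 8 without wild-type replicate 1 and 0 without replicate 2 or 3. Of 190 values of member changes under alternatives, 160 kept direction and side of the threshold. Against wild-type replicate 1 alone the log2 change turned for Dnmt3a (0.62), Dnmt3b (2.45), Dnmt3l (3.22), Tet1 (1.64), Tet2 (1.28), Tdg (0.16), Uhrf2 (-0.0026), Usp7 (0.25), Lig1 (0.16), Trim28 (0.23), Nsd1 (0.33), Zfp57 (0.83), Rbm47 (0.49) and Sycp3 (0.69). Apobec3 turned with library weights (-0.19) and Apobec2 with quantile normalization (-0.25), and both without wild-type replicate 1; leaving out single libraries gave -0.38 to 1.11 for Apobec3 and -0.16 to 0.56 for Apobec2. The cause was not tested. Of 570 such values for named pathway genes, 442 kept direction and side, and of 304 list counts 204 stayed within 1.5 times.

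Over all genes the median log2 change was 0.17 in the deposited scaling, 0.00 with median-of-ratios, 0.14 with TPM and -0.06 with quantile scaling, and the higher share of calls 71.3%, 50.3%, 63.8% and 46.9%. No paired analysis was possible because the labels give no replicate numbers. No member fell below the low-value filter, so the permutation test planned for that case was not run. Library depth is unknown, so a listed 0 cannot be given a limit.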

Other observations

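Among all 21130 rows, Dnmt3l ranked above 98.8% and 99.0% of rows in wild-type replicates 2 and 3, above 33.7% in wild-type replicate 1, and above 38.9% to 91.6% in the MSTN+/- libraries. Tet3 ranked above 44.4% and 45.2% of rows in wild-type replicates 2 and 3 and above 55.5% to 61.8% in the other 8 libraries.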
